A study of Mus musculus with 6 samples.

Results

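Prostaglandin synthesis genes were followed in Lewis cells, a mouse lung carcinoma line, given DMSO or SD70 for 24 hours. The 8 genes were taken as a list of symbols, chosen with earlier results of these data known. The rule that picks their rows uses no measured value. The 8 are Pla2g4a, Ptgs1, Ptgs2, Ptges, Ptges2, Ptges3, Hpgd and Ptger4. Of these, 7 were among the 16081 genes listed for every sample, and 6 were among the 11552 genes with enough counts to be tested. Ptger4 was listed with almost no counts, and Hpgd was not analysed here.

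SD70 is an inhibitor of KDM4C, a histone demethylase, and DMSO is the solvent in which it was given. Both groups were the same cell line, grown in DMEM with serum, and this treatment is the one difference that the labels give. No SD70 dose is given for this experiment in the sources used here. Each group had 3 samples of bulk mRNA sequencing, numbered 1 to 3 in the labels, which do not say that they came from separate cultures. The methods state in general that experiments were repeated independently, without naming the sequencing, so the p-values measure the spread between these samples, which may be technical. The labels give no batch, and their extraction text describes ground tissue although the samples are named as cultured cells.

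Prostaglandins are short-lived lipid signals made from arachidonic acid. A phospholipase cuts the fatty acid from membrane phospholipids, a cyclooxygenase turns it into the unstable prostaglandin H, and terminal synthases convert this into prostaglandin E, prostacyclin, thromboxane and the other products. In lung carcinoma the prostaglandin E arm, run by the inducible cyclooxygenase COX-2 and by microsomal prostaglandin E synthase, is known for effects on tumour growth and on immune cells around the tumour.

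Total counts per sample ran from 15276744 to 17060424, and 14062 to 14105 genes per sample had a count above 0. No pair of samples within a group differed by as little as sampling noise, with a chi-square per gene of 2.12 or more. Kdm4c, which encodes the enzyme that SD70 inhibits, averaged 753 ± 34.6 (SD, n = 3) under DMSO and 765 ± 34.2 (SD, n = 3) under SD70 in normalized counts. Its log2 change of 0.02 gave an adjusted p of 0.769 in edgeR, and since an inhibitor acts on the enzyme and not on its mRNA, this value checks no label. Vim, a mesenchymal intermediate filament gene, and the keratin gene Krt8 were high in every sample, with at least 44823 and 2382 counts. The epithelial markers Epcam, Cdh1 and Krt19 and the alveolar marker Sftpc had at most 1 count in any sample. Krt18 had 31 to 101 counts, and no marker read here bears out the labelled lung origin.

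The start regions of the 4 genes on which the comparisons turn are shown first, the cyclooxygenase pair and then the prostaglandin E synthases that moved in opposite directions. Each is 250 bases before and 50 bases after a RefSeq transcript start on GRCm38.p6, written on the strand of the gene, and capitals mark letters that match a searched motif. For Ptgs1 and Ptges this start lies inside the annotated span of the gene, chr2:36216742-36258593 and chr2:30889471-30931020, and not at its outer end. The Ptges region overlaps the lncRNA Gm52550. The Ptgs2 region is chr1:150099781-150100080 on the plus strand, that of Ptgs1 is chr2:36230176-36230475 on the plus strand, that of Ptges is chr2:30903248-30903547 on the minus strand, and that of Ptges3 is chr10:128058732-128059031 on the plus strand.
Ptgs2: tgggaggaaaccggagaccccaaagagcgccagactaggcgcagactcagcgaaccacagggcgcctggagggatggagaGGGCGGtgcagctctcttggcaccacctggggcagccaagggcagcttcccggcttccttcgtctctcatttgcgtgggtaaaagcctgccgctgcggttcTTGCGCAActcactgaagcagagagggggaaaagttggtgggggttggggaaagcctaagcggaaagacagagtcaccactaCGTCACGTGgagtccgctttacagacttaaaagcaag
Ptgs1: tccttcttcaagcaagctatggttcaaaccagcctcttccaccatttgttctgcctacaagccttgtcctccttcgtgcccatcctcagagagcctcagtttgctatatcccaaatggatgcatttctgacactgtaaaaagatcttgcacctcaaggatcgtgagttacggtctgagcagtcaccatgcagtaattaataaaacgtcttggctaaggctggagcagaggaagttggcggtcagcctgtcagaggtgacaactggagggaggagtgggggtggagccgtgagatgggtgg
Ptges: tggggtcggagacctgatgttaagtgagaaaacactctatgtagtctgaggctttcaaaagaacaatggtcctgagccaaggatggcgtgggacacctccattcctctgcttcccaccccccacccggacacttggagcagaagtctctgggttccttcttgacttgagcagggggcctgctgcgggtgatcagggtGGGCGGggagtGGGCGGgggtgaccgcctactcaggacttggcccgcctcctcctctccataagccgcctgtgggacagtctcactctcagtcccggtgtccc
Ptges3: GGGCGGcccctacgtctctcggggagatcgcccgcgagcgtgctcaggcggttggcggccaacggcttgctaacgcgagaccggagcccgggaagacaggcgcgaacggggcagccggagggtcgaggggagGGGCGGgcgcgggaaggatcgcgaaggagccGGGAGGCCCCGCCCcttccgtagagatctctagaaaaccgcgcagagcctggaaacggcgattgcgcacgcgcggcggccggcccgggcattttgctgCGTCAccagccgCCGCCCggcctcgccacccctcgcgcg

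Both strands were searched for 7 motifs in all 32851 RefSeq regions of this length. The GC box, spelled GGGCGG, was held by 35.7% of them. The C/EBP palindrome, spelled TTGCGCAA, was rare and stood in 0.183%. The core of a cAMP response element, spelled CGTCA, was found in 20.8%. An E-box of the letters CACGTG was found in 7.15% of the regions. The TATA box was taken as TATAAA, which 13.6% of the regions held. The AP-1 site was taken as TGANTCA, which 7.81% of the regions held. The NF-kB site matched in 8.46%. With positions counted from the transcript start as +1, the Ptgs2 region held a GC box at -170, the C/EBP palindrome at -69, the cAMP response core at +14 and the E-box at +17, the last 2 sharing letters. The Ptgs1 region held none of the 7, which says only that these letters are not in this window. The Ptges region held GC boxes at -53 and -42. The Ptges3 region held GC boxes in 4 places and the cAMP response core at +12, and its NF-kB match at -87 shares letters with one of the GC boxes. Its GC content was 73.7%, against 60.0% for Ptges, 59.3% for Ptgs2, 50.7% for Ptgs1 and a median of 52.7% over all the regions. A match is a description of letters and not a binding site.

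In SD70-treated Lewis cells, Ptgs2, Ptges3 and Pla2g4a were higher, Ptges was lower, and Ptgs1 and Ptges2 did not pass the test. The rises were 54.0% for Ptgs2, 25.5% for Ptges3 and 15.2% for Pla2g4a, and Ptges fell by 14.1%. A gene passed when the quasi-likelihood test of edgeR gave it a Benjamini-Hochberg adjusted p, over all genes tested, under 0.01, and it was called when it also changed at least 2-fold. Of the 6 tested genes 3 passed higher and 1 passed lower, beside 25.8% and 24.2% of all genes tested. By edgeR none of the 6 was called, beside 5.90% of all genes. The count was also 0 by DESeq2, by limma, and at 2-fold with an unadjusted p under 0.05. No log2 fold change of the 6 exceeded 0.73 in size in any setting, so the fold limit alone fixed these counts. The 3 samples of one group lay wholly above those of the other in normalized counts for 5 of the 6 genes, beside 64.4% of all genes. The median log2 fold change was 0.20 over the 6 and close to 0 over all genes, whose median absolute change was 0.25.

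**Figure D1:**
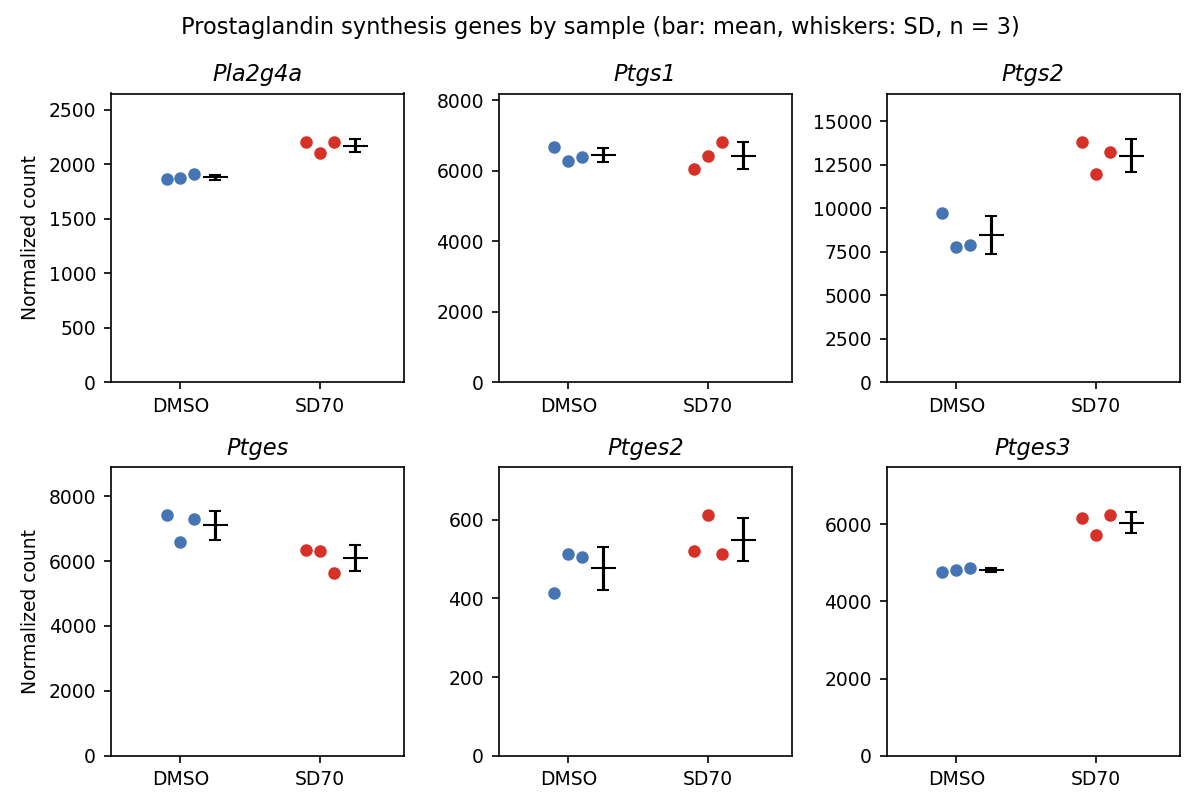
Normalized counts (vertical axis, from 0, its range differing between panels) of the 6 tested prostaglandin synthesis genes in the 3 DMSO and 3 SD70 samples, with one point per sample and the mean and SD beside them. The SD70 samples of Ptgs2, Ptges3 and Pla2g4a lie above all DMSO samples, those of Ptges lie below them, and those of Ptgs1 span the DMSO values.

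The supply of arachidonic acid was read from Pla2g4a, the cytosolic phospholipase that releases it from membranes, at chr1:149829618-149961290 on the minus strand of GRCm38.p6. Its counts were 1913, 1933 and 1991 in DMSO samples 1, 2 and 3, and 2177, 2116 and 2002 in SD70 samples 1, 2 and 3. Scaled to a common library size, these became 1864, 1877 and 1909 with DMSO and 2209, 2101 and 2202 with SD70. The highest DMSO value was below the lowest SD70 value. The mean rose from 1884 ± 23.3 (SD, n = 3) to 2171 ± 60.4 (SD, n = 3), and edgeR put the log2 change at 0.20 ± 0.0515 (SE), adjusted p = 9.07e-04. Without DMSO sample 2 the log2 fold change was 0.19 and the adjusted p, 0.0103, missed the threshold.

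Cyclooxygenase was measured from a constitutive and an inducible gene, of which the inducible one rose and the constitutive one did not pass the test. Ptgs2, which encodes the inducible COX-2 and lies at chr1:150100031-150108234 on the plus strand, was counted 9958, 7974 and 8246 times in the DMSO samples and 13631, 12061 and 12028 times in the SD70 samples. Normalized, the DMSO samples stood at 9704, 7744 and 7908 and the SD70 samples at 13833, 11977 and 13233. DMSO sample 1 was the highest of its group and still lay under every SD70 sample. The mean rose from 8452 ± 1087 (SD, n = 3) to 13014 ± 947 (SD, n = 3), and edgeR put the log2 change at 0.62 ± 0.0877 (SE), adjusted p = 1.40e-04. It ranked 1917 among the 11552 genes by absolute log2 fold change. Without SD70 sample 3 the log2 fold change was 0.60 and the adjusted p was 0.0123, which missed the threshold, while over all the alternatives the adjusted p ran from 1.35e-30 to that value.

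Ptgs1, which encodes the constitutive COX-1 and lies at chr2:36216742-36258593 on the plus strand, was counted 6848, 6478 and 6667 times in the DMSO samples and 5963, 6465 and 6207 times in the SD70 samples. Normalized, the DMSO samples stood at 6673, 6291 and 6394 and the SD70 samples at 6051, 6420 and 6829. Both the lowest and the highest of the 6 values were SD70 samples, so the groups overlapped. The means were 6453 ± 198 and 6433 ± 389 (SD, n = 3 each), and the log2 change was -0.0045 with a standard error of 0.0508 (adjusted p = 0.947, edgeR). Its sign depended on which sample was left out, and over all the alternatives it stayed between -0.06 and 0.04.

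Per unit of transcript length, Ptgs1 stood above Ptgs2 in every DMSO sample and below it in every SD70 sample. FPKM, a level scaled by gene length and library size, was 151.76, 143.29 and 144.14 for Ptgs1 and 138.34, 110.75 and 112.28 for Ptgs2 in DMSO samples 1, 2 and 3. In SD70 samples 1, 2 and 3 it was 133.87, 142.54 and 152.11 for Ptgs1 and 192.04, 166.91 and 184.25 for Ptgs2. The ratio of Ptgs2 to Ptgs1 was thus between 0.773 and 0.912 with DMSO and between 1.17 and 1.43 with SD70. As a share of the summed cyclooxygenase FPKM, Ptgs2 made up 47.7%, 43.6% and 43.8% with DMSO and 58.9%, 53.9% and 54.8% with SD70. The mean share was 45.0% ± 2.31 (SD, n = 3) under DMSO and 55.9% ± 2.67 (SD, n = 3) under SD70, a difference of 10.9 percentage points. The groups did not overlap, and the two-sided exact permutation test gave p = 0.1, the smallest that 3 samples against 3 allow. Leaving out each sample in turn gave differences from 9.33 to 12.2 points. In normalized counts, with no correction for length, Ptgs2 was above Ptgs1 in every sample. The crossing thus rests on the gene lengths that the deposited values imply, 2671 to 2711 bases for Ptgs1 and 4273 to 4305 for Ptgs2. From normalized counts the difference in share was 10.3 points.

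**Figure D2:**
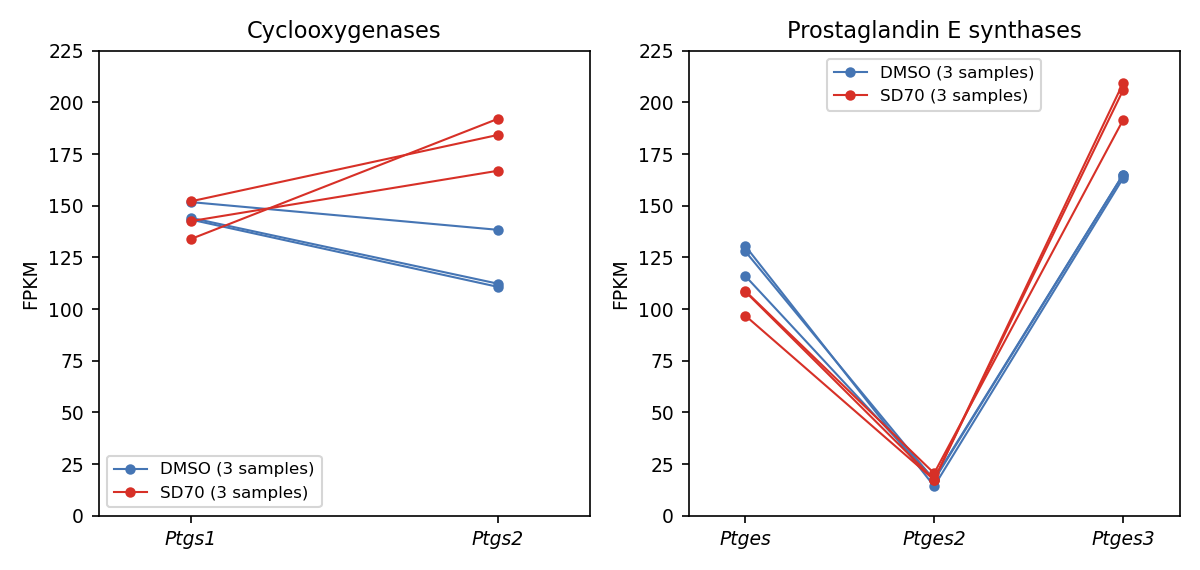
FPKM (vertical axis, from 0) of the cyclooxygenase genes, left, and of the prostaglandin E synthase genes, right, with points of the same sample joined by a line, DMSO in blue and SD70 in red. The Ptgs1 to Ptgs2 lines run downward in the 3 DMSO samples and upward in the 3 SD70 samples, and Ptges2 lies below 21 FPKM in all 6.

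For the final step to prostaglandin E, 3 genes named as its synthases were read, and they did not move together. Ptges, the microsomal synthase that is known to couple with COX-2, lies at chr2:30889471-30931020 on the minus strand. Its counts were 7613, 6771 and 7622 in DMSO samples 1, 2 and 3, against 6237, 6371 and 5120 in the SD70 samples. Normalized, the DMSO samples stood at 7419, 6576 and 7309 and the SD70 samples at 6329, 6327 and 5633. The lowest DMSO sample, sample 2, lay above the highest SD70 sample. The mean fell from 7101 ± 458 (SD, n = 3) to 6096 ± 401 (SD, n = 3), and edgeR put the log2 change at -0.22 ± 0.0542 (SE), adjusted p = 7.68e-04. The annotated span of Ptges overlaps the lncRNA Gm52550 and the pseudogene Gm13400, neither of which is listed, and no strand setting of the counting is given in the sources used here.

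Ptges3, the cytosolic prostaglandin E synthase, is also known as the HSP90 co-chaperone p23 and lies at chr10:128058982-128077254 on the plus strand. It was counted 4891, 4961 and 5079 times in the DMSO samples and 6072, 5774 and 5673 times in the SD70 samples. Normalized, the DMSO samples stood at 4766, 4818 and 4871 and the SD70 samples at 6162, 5734 and 6241. All SD70 samples were higher than all DMSO samples, by more than the spread within either group. The pseudogene Ptges3-ps is not listed, and how reads that match both were counted is not given in the sources used here. The mean rose from 4818 ± 52.3 (SD, n = 3) to 6046 ± 273 (SD, n = 3), and edgeR put the log2 change at 0.33 ± 0.0492 (SE), adjusted p = 6.71e-07.

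Ptges2, a membrane-associated synthase at chr2:32395890-32402740 on the plus strand, was the least abundant of the 3. It was counted 425, 528 and 526 times in the DMSO samples and 514, 616 and 467 times in the SD70 samples. Normalized, the DMSO samples stood at 414, 513 and 504 and the SD70 samples at 522, 612 and 514, so that the lowest SD70 value and the highest DMSO value nearly touched. FPKM overlapped, at 14.26, 17.66 and 17.16 with DMSO and 17.49, 20.52 and 17.32 with SD70. For Ptges2 the log2 change was 0.20 ± 0.0829 (SE), and the adjusted p of 0.0348 from edgeR did not pass the threshold. The change was 0.11 without DMSO sample 1 and 0.12 without SD70 sample 2.

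Among the prostaglandin E synthases, Ptges3 was the highest per length in every sample, Ptges was next and Ptges2 was the lowest. FPKM of Ptges3 was 163.3, 165.1 and 164.96 with DMSO and 205.92, 191.49 and 209.33 with SD70. FPKM of Ptges was 130.56, 116.04 and 127.95 with DMSO and 108.48, 108.78 and 96.86 with SD70. The ratio of Ptges3 to Ptges was between 1.25 and 1.42 with DMSO and between 1.76 and 2.16 with SD70. In normalized counts Ptges was above Ptges3 in every DMSO sample and in SD70 samples 1 and 2, but not in SD70 sample 3. Their order per length thus rests on the implied gene lengths, 3460 to 3492 bases for Ptges and 1774 to 1805 for Ptges3. The share of Ptges in the summed FPKM of the 3 synthases was 42.4%, 38.8% and 41.3% with DMSO and 32.7%, 33.9% and 29.9% with SD70. On average it went from 40.8% ± 1.81 to 32.2% ± 2.03 (SD, n = 3 each), a difference of -8.65 percentage points. The groups did not overlap (two-sided exact permutation p = 0.1, the smallest possible), and leaving out each sample gave differences from -9.64 to -7.53. The gene length that the deposited values imply for Ptges2 was 1765 to 1797 bases, below the 4978 bases of its longest coding transcript in GENCODE M21, and a longer model would place its level lower still.

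With DMSO, the order of the 6 genes by FPKM was Ptges3, Ptgs1, Ptges, Ptgs2, Pla2g4a and Ptges2. Neighbours in this order overlapped only between Ptges and Ptgs2, where Ptgs2 in DMSO sample 1 exceeded all 3 Ptges values. With SD70 the order was Ptges3, Ptgs2, Ptgs1, Ptges, Pla2g4a and Ptges2, and the Ptges3 and Ptgs2 values overlapped. The mean FPKM of Ptges3, Ptgs1, Ptges and Ptgs2 exceeded that of 95.2% to 97.8% of the listed genes in either group. Pla2g4a, at 42.5 to 43.21 FPKM with DMSO and 46.77 to 49.1 with SD70, exceeded 87.0% and 88.3% of them, and Ptges2 exceeded 68.9% and 71.3%. Since these are bulk samples, fewer cells that carry a transcript and less of it per cell cannot be told apart.

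Pla2g4a and Ptgs2, which encode the first and second steps, are neighbours on chromosome 1. Their annotated spans are 138740 bases apart, with 2 genes between them, Gm19136 and Ptgs2os, and no protein-coding gene. The percentage rise of Ptgs2 was the larger of the pair, 54.0% against 15.2%.

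The response end of the pathway had few transcripts. Ptger4, which encodes the prostaglandin E receptor EP4 and lies at chr15:5233399-5244187 on the minus strand, had 0, 0 and 1 counts with DMSO and 0 in each SD70 sample. A count of 0 allows up to 3 counts, or 0.176 to 0.196 CPM at these depths, so a fall in Ptger4, or a rise that stays within this limit, was not detectable. Hpgd, which encodes the dehydrogenase that inactivates prostaglandin E, lies at chr8:56294552-56321046 on the plus strand, and no value is given for it.

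The rest of the pathway was read from 59 further symbols, of which 49 were listed and 28 were tested. Of these, 6 passed higher and 5 passed lower, beside 25.8% and 24.2% of all genes, and 1 was called, beside 5.90%. As shares of the 28, these counts lie below those over all genes, and the median log2 fold change was -0.01. Among phospholipases and regulators of arachidonate release, 3 of 10 tested genes passed higher and 2 passed lower, about the share of all genes (25.8% and 24.2%). Pla2g4e, a cytosolic phospholipase family member known as a calcium-dependent N-acyltransferase, was the gene called. It was counted 19, 10 and 8 times in the DMSO samples and 58, 65 and 61 times in the SD70 samples, and rose by 2.40 ± 0.253 (SE) on the log2 scale, adjusted p = 4.62e-10 in edgeR. On the log2(FPKM + 1) scale, which understates the change of low genes, its difference was 0.73. Pla2g5, a secreted phospholipase, rose from 1900 to 2484 mean normalized counts (log2 fold change 0.39, adjusted p = 8.30e-08). Pla2g15, the lysosomal phospholipase, fell from 562 to 410 (log2 fold change -0.46, adjusted p = 2.82e-06).

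The genes that return arachidonate to membranes gave 0 passes of 4 tested, beside 25.8% of all genes higher and 24.2% lower, with log2 fold changes of -0.12 for the acyltransferase gene Mboat7, 0.11 for Lpcat3 and 0.03 for the acyl-CoA synthetase gene Acsl4. Mboat7 was at -0.07 without SD70 sample 1, and Lpcat3 was at 0.03 in both limma fits on FPKM. At an unadjusted p under 0.05 the edgeR count for these 4 was also 0, as it was by DESeq2 and by limma. Of the synthases for other prostanoids, 3 were tested. Ptgis, the prostacyclin synthase, averaged 64.9 ± 4.39 normalized counts (SD, n = 3) under DMSO and 105 ± 18.0 (SD, n = 3) under SD70, a rise of 0.69 on the log2 scale (adjusted p = 2.32e-04, edgeR). Akr1b3, an aldose reductase with prostaglandin F synthase activity, fell from 4841 to 4277 (log2 fold change -0.18, adjusted p = 2.56e-03), but missed the threshold without DMSO sample 2, DMSO sample 3 or SD70 sample 1 (adjusted p from 0.0103 to 0.0231). Cbr1, a carbonyl reductase, had a log2 fold change of -0.24 and an adjusted p of 0.0443, and passed only in the limma fits (adjusted p = 0.0063 and 0.0059).

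Reductases that finish the inactivation of prostaglandins changed in both directions. Zadh2, an oxoprostaglandin reductase, rose from 787 ± 34.0 (SD, n = 3) to 1137 ± 54.1 (SD, n = 3), a log2 change of 0.53 (adjusted p = 2.84e-09, edgeR). Ptgr2 rose from 407 to 522 (log2 fold change 0.36, adjusted p = 9.73e-05). Ptgr1, which also acts on leukotrienes, fell from 927 ± 41.0 to 672 ± 4.24 (log2 fold change -0.46, adjusted p = 6.94e-08). Of the prostanoid receptors, 5 were listed besides Ptger4 and 2 were tested. Ptger1 and Ptgir, receptors for prostaglandin E and prostacyclin, had log2 fold changes of 0.27 and -0.04 (adjusted p = 0.418 and 0.928), with means of 20.3 and 10.7 normalized counts under DMSO. The value of Ptger1 was 0.09 without SD70 sample 2 and 0.50 without SD70 sample 1. Ptgfr, the prostaglandin F receptor, named here after its values were seen, was counted 12, 8 and 13 times in the DMSO samples and 2, 2 and 1 times in the SD70 samples, too few for the filter. When every gene with any count was fitted, its adjusted p was 2.49e-04 (edgeR).

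In the lipoxygenase branch, which competes for arachidonate, 1 of 5 tested genes passed lower by edgeR and 0 passed higher, beside 24.2% and 25.8% of all genes. The count higher was also 0 at an unadjusted p under 0.05, by DESeq2 and by limma. Alox5 and Ltc4s were not listed, and the lipoxygenase genes Alox12, Alox12b and Alox15 had at most 8 counts in any sample. Lta4h, which makes leukotriene B4, went from 2299 ± 68.2 to 2054 ± 108 normalized counts (log2 fold change -0.16, adjusted p = 8.59e-03, edgeR). Its adjusted p was 0.0210 without DMSO sample 1, 0.0393 without DMSO sample 3, 0.0565 without SD70 sample 1 and 0.0108 by DESeq2. Alox5ap, the activating protein of 5-lipoxygenase, had a log2 fold change of -0.75 (adjusted p = 0.0475) and passed without DMSO sample 2 alone (adjusted p = 0.0075). Without single samples its log2 fold change ran from -1.05 (SD70 sample 3 left out) to -0.39 (SD70 sample 2 left out). Aloxe3, an epidermal lipoxygenase family member, had -0.20 (adjusted p = 0.668).

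**Figure D3:**
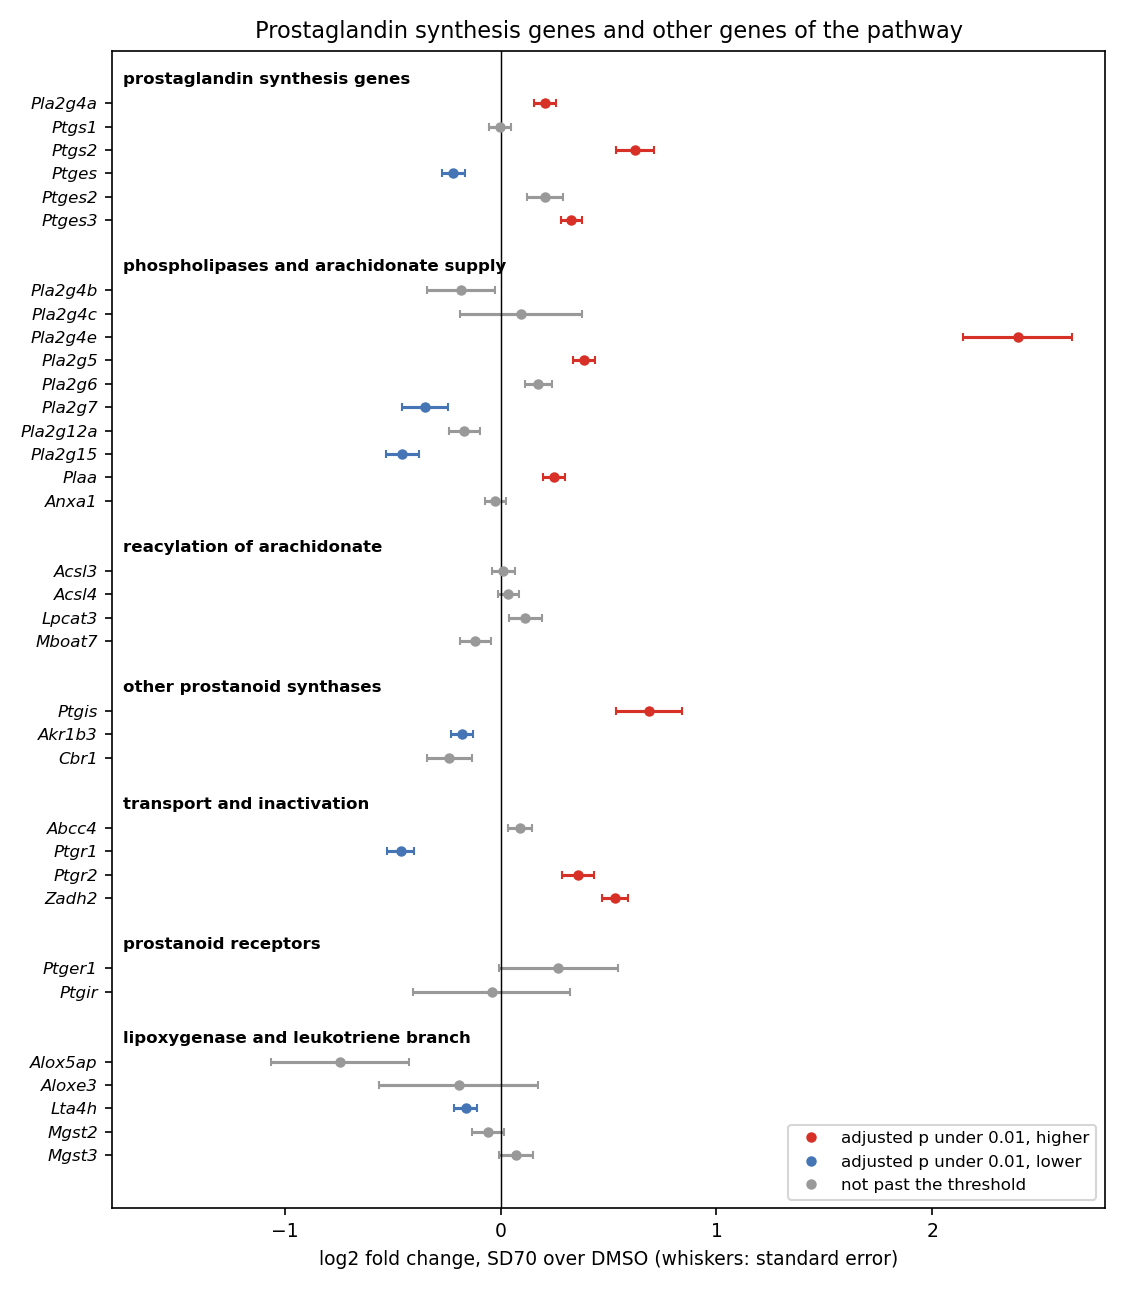
Log2 fold change of SD70 over DMSO (horizontal axis, whiskers the standard error, 3 samples a group) for the 6 tested prostaglandin synthesis genes and 28 other tested genes of the pathway, grouped by role. Red and blue points passed higher and lower, grey points did not pass, and Pla2g4e at 2.40 is the one gene past a change of 1.

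Across the 6 samples, the 3 genes nearest to Ptgs2 by distance of centred log2 CPM were 6030458C11Rik, Cep85l and Olfr1033, at distances of 0.157, 0.158 and 0.171 among 9622 genes. Their log2 fold changes were 0.58, 0.56 and 0.53, beside 0.62 for Ptgs2, a likeness that the choice of the genes fixed, since the distance includes the difference between the groups.

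Markers of other cells that carry cyclooxygenase were read beside these results. Of 8 macrophage and myeloid markers, 6 were listed and 3 tested, with Cd14 higher (log2 fold change 0.77, adjusted p = 5.12e-10, edgeR) and Cd68 lower (log2 fold change -0.48, adjusted p = 1.21e-04). The list's summed FPKM was 24.4 to 25.2 with DMSO and 27.2 to 29.7 with SD70, while Csf1r had at most 1 count in any sample and Ptprc, the pan-leukocyte marker, had 0 counts with DMSO and at most 2 with SD70. Of 6 fibroblast markers, 4 were tested, and Pdgfrb was called higher (log2 fold change 1.54) while Pdgfra (-0.999) and Dcn (-0.19) passed lower. These opposite changes offset each other in the list's summed FPKM, which was 58.5 to 61.7 with DMSO and 57.6 to 60.9 with SD70. Summed FPKM reached at most 1.22 for the endothelial list, 1.15 for the mast cell and platelet list and 1.01 for the lymphocyte list, in each of which 1 gene was tested and did not pass. The epithelial list, led by Krt8, went from between 148 and 155 to between 94.5 and 106 summed FPKM, with Krt18 called lower (log2 fold change -1.22, adjusted p = 2.97e-07, edgeR), and the mesenchymal list, led by Vim, from between 2436 and 2723 to between 1736 and 1897. Whether these shifts had a part in the changes of the prostaglandin genes was not tested.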

How the data were processed

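The authors sequenced mRNA on the BGISEQ-500 platform and aligned it with HISAT to GRCm38.p6, per the methods, while the submitters' processing notes name StringTie 1.3.3b and mm8. Positions here are those of RefSeq on GRCm38.p6. For each gene and sample the authors deposited an expected count, which is not normalized and need not be whole (8.84% to 9.28% of values were not). They also deposited a value that behaves as FPKM, which the file header does not name.

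Expected counts were rounded, filtered by filterByExpr, scaled by TMM (factors 0.984 to 1.02) and tested with the robust quasi-likelihood test of edgeR 4.0.16 in R 4.3.3, adjusted by Benjamini-Hochberg over 11552 genes. Standard errors come from the F statistic. Normalized counts are scaled to the mean effective library size. Shares and ratios use FPKM. With 3 samples a group, precision is low for genes with few counts; the floor of 3 counts covers counting error only. Other settings were DESeq2 size factors, 2 other filters, DESeq2 1.42.0, limma 3.58.1 on log2(FPKM + 1) and log2(FPKM + 0.1), a replicate block and leaving out each sample.

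The genes, lists and tests were chosen with earlier results of these data known. The text names all 8 genes, called pathway genes, the 3 tested genes of each pathway list with the largest absolute log2 fold change, and the 3 genes nearest to Ptgs2 among those with a mean of at least 100 normalized counts. Values of Ptgfr and the cell markers were seen before these were named. The fits were tested on simulated data.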

Additional observations from a re-analysis of the deposited data

How the results depend on the processing

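Ptgs2, Ptges, Ptges3, Ptges2 and Pla2g4a kept their direction in all 13 alternatives each. Leaving out each sample gave log2 fold changes of 0.55 to 0.73 for Ptgs2 and 0.19 to 0.23 for Pla2g4a, each missing the threshold once, and of -0.0555 to 0.0390 for Ptgs1, whose value turned positive without DMSO sample 1 (0.0197) and without SD70 sample 1 (0.0390). Among other genes not past the threshold, leaving out samples gave -0.524 to 0.0337 for Aloxe3 (positive without SD70 sample 1), -0.101 to 0.0455 for Ptgir (positive without SD70 sample 3) and -0.00244 to 0.0558 for Acsl4 (negative without SD70 sample 1), and Acsl4 was at -0.00196 on log2(FPKM + 1) and -0.00198 on log2(FPKM + 0.1). The number of genes called was 681 by edgeR and 283 on log2(FPKM + 1), and the 1 pathway gene called, Pla2g4e, became 0 there, where its change of 0.73 was under the 2-fold limit, and when 10 counts were asked of every sample, a filter that leaves it out since DMSO sample 3 had 8. The 5 pathway genes lower became 3 by DESeq2, 3 to 5 when a sample was left out and 7 in both limma fits, and the cause was not tested. A replicate block gave Ptgs2 a log2 change of 0.63 (adjusted p = 1.46e-14, edgeR) and 692 called genes, and the block changed no call of the 6 genes. Deviations of same-numbered samples correlated at -0.07, 0.05 and 0.11 over 11552 genes, so the samples were not taken as paired. At these depths a fall in Ptger4, or a rise within the limit that a count of 0 allows, could not be detected.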
